A study of Mus musculus with 24 samples.

Results

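Cultured mouse cerebellar granule neurons (CGNs) treated with the KDM6 inhibitor GSK-J4 were compared with cultures that received its DMSO vehicle, and the measured quantity was H3K27me3, the trimethyl mark on lysine 27 of histone H3. The samples were chosen by their labels and make up 6 of the 24 libraries of the series: 3 GSK-J4 replicates and 3 DMSO replicates. The other 18 libraries belong to an experiment with the EZH2 inhibitor GSK-126 and to a time course of untreated cultures. Granule neuron progenitors were taken from CD1-IGS mice on postnatal days 6 to 8 and separated on a Percoll gradient, and each replicate was a culture from the pooled cerebella of litters, so that it does not stand for a single animal. GSK-J4 at 1 µM, or DMSO, was added once on day in vitro (DIV) 1. Both groups received 1 µM cytosine arabinoside, which blocks the division of non-neuronal cells, on DIV2 and were harvested on DIV5. Nuclei were profiled by CUT&RUN with an H3K27me3 antibody. In CUT&RUN, the antibody directs a nuclease that releases the marked chromatin for sequencing. For every library the authors deposited a list of broad peaks called on that library alone. These lists hold no read counts, so sequencing depth is unknown, and where no peak was called the mark may be absent or too weak to pass.

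H3K27me3 is written by Polycomb repressive complex 2, whose catalytic subunit is EZH2 or EZH1, and it accompanies the silencing of developmental genes and of genes of other lineages. KDM6A (also called UTX) and KDM6B (JMJD3) are the demethylases that remove it, and GSK-J4 is a cell-permeable inhibitor of both. In the developing cerebellum the mark is redistributed while granule neurons exit the cell cycle, migrate and form synapses. The comparison with GSK-J4 asks which promoters depend on demethylation in newly postmitotic CGNs, provided that the drug inhibits the enzymes at this dose. The paper saw no change in H3K27me3 with GSK-J4 by western blot or CUT&RUN and judged the drug's usable range too small for neurons. Of 14 genes that granule neurons transcribe, such as Neurod1 and Cbln1, 2 (14.3%) had a promoter peak in any of the 6 libraries. Of 80 ribosomal protein genes, which every cell transcribes, 8 (10.0%) did, beside 16.5% of all protein-coding promoters. Among 23 glial, microglial and vascular markers, 6 (26.1%) had a peak in at least 1 library. The same held for 6 (40.0%) of 15 Purkinje cell and interneuron markers. These lists are short, and their shares do not verify the cell label of the cultures. A promoter is here the 6 kb window centred on the annotated 5′ end of a protein-coding gene (21938 genes, mm10), and its value is the percentage of that window covered by peaks.

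The DNA under peaks was rich in CpG, and stretches from some of the promoters named below are shown here. The promoter coverage values below are for whole 6 kb windows and not for these stretches. Each line is read from GRCm38.p6 (mm10 coordinates) 5′ to 3′ on the plus strand, with CpG dinucleotides in capitals. Avpr1a (a vasopressin receptor) and Pld1 (phospholipase D) were covered in all 6 libraries. Rhbdl3 and Hsd17b1 come from the promoters with higher coverage in GSK-J4, and Gja1 and Htr1f from those with lower coverage.
Avpr1a, chr10:122449025-122449264: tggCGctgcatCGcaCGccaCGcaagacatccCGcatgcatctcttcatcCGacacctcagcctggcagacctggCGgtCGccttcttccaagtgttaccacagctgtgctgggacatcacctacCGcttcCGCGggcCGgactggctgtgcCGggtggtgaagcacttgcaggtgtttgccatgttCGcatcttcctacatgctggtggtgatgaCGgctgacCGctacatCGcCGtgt
Pld1, chr3:27938563-27938802: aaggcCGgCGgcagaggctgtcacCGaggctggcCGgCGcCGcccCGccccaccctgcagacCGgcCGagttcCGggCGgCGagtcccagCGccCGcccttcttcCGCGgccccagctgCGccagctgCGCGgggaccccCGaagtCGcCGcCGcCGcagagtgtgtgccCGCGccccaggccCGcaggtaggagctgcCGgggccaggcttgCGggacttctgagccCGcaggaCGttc
Rhbdl3, chr11:80301570-80301809: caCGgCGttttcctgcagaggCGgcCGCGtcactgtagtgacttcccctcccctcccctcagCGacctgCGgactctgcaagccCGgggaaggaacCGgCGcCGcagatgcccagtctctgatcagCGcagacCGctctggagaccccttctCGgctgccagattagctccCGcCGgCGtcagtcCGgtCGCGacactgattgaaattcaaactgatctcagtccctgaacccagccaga
Hsd17b1, chr11:101078581-101078784: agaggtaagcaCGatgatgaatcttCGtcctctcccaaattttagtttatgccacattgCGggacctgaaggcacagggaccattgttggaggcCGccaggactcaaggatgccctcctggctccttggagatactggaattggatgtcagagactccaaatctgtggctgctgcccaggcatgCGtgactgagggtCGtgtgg
Gja1, chr10:56378673-56378877: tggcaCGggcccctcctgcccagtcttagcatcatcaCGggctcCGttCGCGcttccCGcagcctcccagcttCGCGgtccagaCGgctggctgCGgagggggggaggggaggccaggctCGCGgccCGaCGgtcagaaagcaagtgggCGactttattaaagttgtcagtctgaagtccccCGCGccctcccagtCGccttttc
Htr1f, chr16:65105362-65105601: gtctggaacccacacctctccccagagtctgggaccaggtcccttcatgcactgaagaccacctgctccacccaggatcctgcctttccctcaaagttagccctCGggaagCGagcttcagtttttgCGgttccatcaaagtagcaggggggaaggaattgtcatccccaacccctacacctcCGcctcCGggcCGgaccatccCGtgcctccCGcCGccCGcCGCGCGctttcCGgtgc
The Avpr1a stretch lay 646 bp downstream of the annotated 5′ end, the one of Pld1 straddled it with a centre at -12 bp, and those of Rhbdl3, Hsd17b1, Gja1 and Htr1f were centred 778, 272, 1445 and 372 bp downstream. CpG density was 7.50 per 100 bp at Avpr1a, 12.9 at Pld1, 8.33 at Rhbdl3, 2.94 at Hsd17b1, 8.78 at Gja1 and 5.83 at Htr1f. Across all peaks it was 3.33, 3.22 and 4.09 per 100 bp in GSK-J4 replicates 1 to 3, against 3.58, 3.39 and 3.37 in the DMSO replicates, while all promoter windows held 1.87 and the genome 0.826. GC content of the covered bases was 54.5%, 54.1% and 56.4% with GSK-J4, against 55.2%, 54.0% and 54.5% with DMSO, and the genome as a whole had 41.7%. GSK-J4 replicate 3 was the highest of the 6 in both, followed in both by DMSO replicate 1.

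In the number and extent of H3K27me3 peaks, one GSK-J4 library stood apart from the rest. The lists held 6287, 7044 and 10046 peaks in GSK-J4 replicates 1, 2 and 3, against 8292, 6876 and 7858 in the DMSO replicates. They covered 1.40, 1.62 and 3.11 Mb with GSK-J4, against 2.08, 1.70 and 1.89 Mb with DMSO. GSK-J4 replicates 1 and 2 therefore covered less than every DMSO library, and replicate 3 covered more than any. The mean was 2.04 ± 0.928 Mb with GSK-J4 and 1.89 ± 0.193 Mb with DMSO (SD, n = 3 each), a difference of 0.152 Mb that was smaller than the spread (exact two-sided permutation test, p = 1.0, where 3 against 3 cannot go below 0.1). Without GSK-J4 replicate 3 the difference was -0.381 Mb.

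Replicate 3 also held more broad peaks than the others. Peaks of 1 kb or more numbered 45, 75 and 439 in the GSK-J4 replicates, against 143, 111 and 95 in the DMSO replicates, and those of replicate 3 held 0.567 Mb. Promoters with a peak numbered 1666, 1813 and 2637 with GSK-J4, against 2091, 1855 and 1969 with DMSO. Of the 2637 promoters of replicate 3, 399 (15.1%) had a peak in no other library of the experiment, whereas this share was between 6.90% and 7.56% in the 5 others. Mean fold enrichment over background was 4.19, 4.12 and 3.91 with GSK-J4, against 4.04, 4.07 and 4.09 with DMSO, so the library with the longest peaks had the lowest enrichment per peak.

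**Figure D1:**
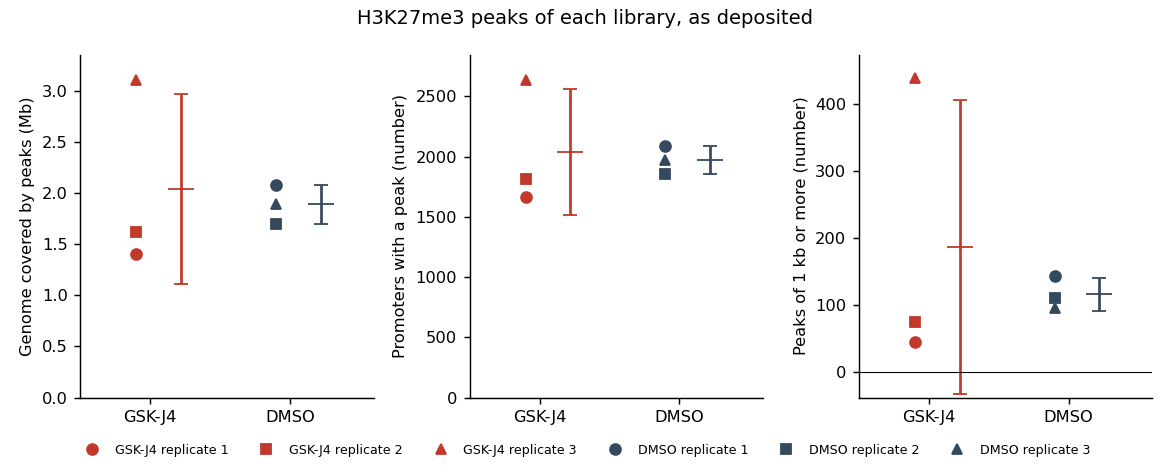
Genome covered by peaks (left, Mb), promoters with a peak (middle, number) and peaks of 1 kb or more (right, number) in each GSK-J4 and DMSO library. Symbols are replicates and the bars beside them are the mean ± SD of 3 libraries. GSK-J4 replicate 3 was the highest of the 6 in each panel, with 3.11 Mb, 2637 promoters and 439 peaks.

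The distribution of the mark between promoters, gene bodies and intergenic DNA was close in the 2 groups. Promoter windows held 41.1%, 41.1% and 47.0% of the covered length with GSK-J4, against 43.9%, 43.8% and 41.8% with DMSO. Gene bodies held 21.77%, 22.03% and 21.89% with GSK-J4, against 21.9%, 21.4% and 22.4% with DMSO. Intergenic DNA held the rest, and GSK-J4 replicate 3, with the highest promoter share, had the lowest intergenic share (31.1%). Repeat-masked bases made up 16.7%, 16.1% and 12.6% of the covered length with GSK-J4, against 14.6%, 15.5% and 15.6% with DMSO. Of 13 measures of the full lists, none separated the groups (exact permutation p between 0.6 and 1.0, adjusted p = 1.0 for each).

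Peaks of the 2 groups overlapped about as much as those of replicates. The shared length of 2 lists, as a percentage of their union, ranged from 19.8% to 21.6% between GSK-J4 replicates and from 23.4% to 23.9% between DMSO replicates. Across the 9 pairs of a GSK-J4 with a DMSO library it was between 20.7% and 26.0%. Lists of the same treatment thus differed over most of their joint length. To take away the difference in list length, each list was cut to the 1.40 Mb of the shortest, keeping the peaks with the smallest p-values, and the tests below rest on these lists of equal length. This cut kept 3593 of the 10046 peaks of GSK-J4 replicate 3. It measures where the mark lay and not how much there was in total. In these lists the gene body share was 21.77%, 21.9% and 21.66% with GSK-J4, against 21.2%, 20.83% and 21.53% with DMSO, a difference of 0.59 points without overlap (exact two-sided permutation p = 0.1, the smallest possible, not adjusted). Among peaks with −log10 q of at least 2 it ran the other way, at -1.50 points (exact permutation p = 0.2).

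No promoter passed the test for a difference in H3K27me3 between GSK-J4 and DMSO. Coverage was compared at the 1524 promoters covered in at least 3 of the 6 libraries, with limma and Benjamini-Hochberg adjustment over all of them, and 0 promoters (0%) were called at an adjusted p under 0.05. The smallest adjusted p was 0.975. At an unadjusted p under 0.05, 33 promoters (2.17%) were higher and 40 (2.62%) lower with GSK-J4. The median difference was -0.13 percentage points, with 729 promoters higher and 795 lower, and single differences ran from -16.5 to 13.5 points. The groups did not overlap at 63 promoters (4.13%) that were higher and 74 (4.86%) that were lower with GSK-J4. With the full lists, 31 of the 63 and 20 of the 74 still did not overlap in the same direction.

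The precision of this comparison was low beside the coverage itself. The 95% interval of a promoter's difference reached a median of 6.73 percentage points to either side, beside a median coverage of 4.97%. For 924 of the 1524 promoters (60.6%) the interval lay within 10 points on either side of zero, and for 1511 (99.1%) within 20 points. A gain of 20 points was above the interval at 1516 promoters (99.5%), one of 10 points at 1215 (79.7%) and one of 5 points at 487 (31.96%). Losses are bounded by the coverage itself, and 20 points is near the highest mean coverage of any named promoter (23.5%, Avpr1a). At the 468 promoters covered in all 6 libraries the median difference was 0.12 points, with intervals of a median 7.09 points to either side. The strength of the peaks was compared at the 880 promoters with a peak in all 6 full lists. This choice leaves out promoters where a peak was gained or lost. At the 880, the log2 fold enrichment of the strongest peak differed by a median of -0.00030 (interval of a median 0.12 to either side), and no promoter was called. The median fold enrichment at these promoters was 3.92, 3.86 and 3.75 in the GSK-J4 replicates, against 3.82, 3.85 and 3.87 in the DMSO replicates.

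**Figure D2:**
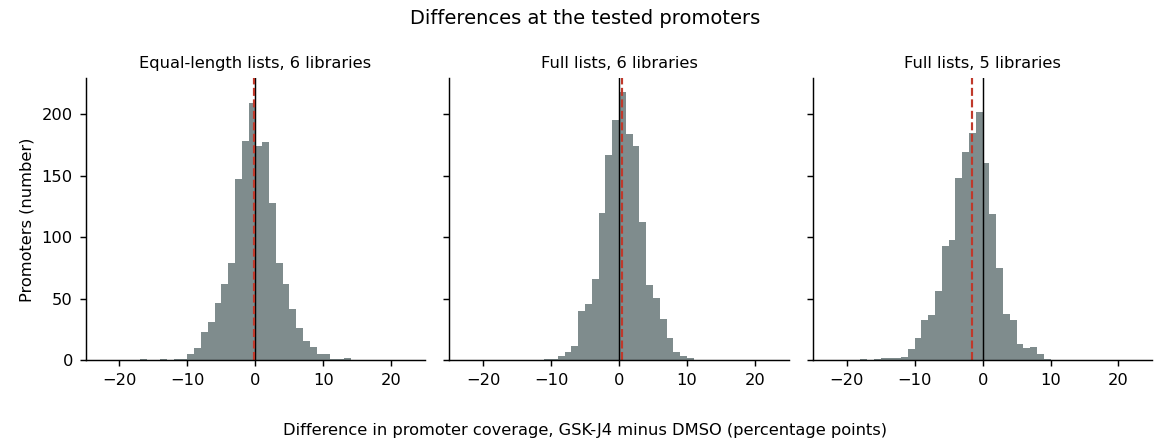
Distribution of the difference in promoter coverage, GSK-J4 minus DMSO (horizontal axis, percentage points), over the 1524 tested promoters (vertical axis, number), with the median as a dashed line. The median was -0.13 points in lists of equal length, 0.50 in the full lists and -1.51 in the full lists once GSK-J4 replicate 3 was left out.

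With the full lists, the direction of the whole distribution followed 1 library. Over the same 1524 promoters the median difference was 0.50 points with all 6 libraries, and 659 (43.2%) were lower with GSK-J4. Without GSK-J4 replicate 3 the median was -1.51 points and 1059 (69.5%) were lower. Neither setting called a promoter.

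Among the 10 most heavily marked promoters the groups overlapped at 8, and Nid1 and Ahnak were the exceptions. Avpr1a was covered over 18.2%, 21.9% and 32.9% of its window in GSK-J4 replicates 1 to 3, against 20.2%, 26.6% and 21.4% in the DMSO replicates, the highest mean of all named genes. Nid1, which encodes the basement membrane protein nidogen, had 24.3%, 23.2% and 25.5% with GSK-J4, against 16.98%, 19.2% and 23.1% with DMSO. Its 3 GSK-J4 values were all above the DMSO values, with a difference of 4.56 points and a 95% interval from -1.11 to 10.2. Lrat, an enzyme of vitamin A storage, had 18.97%, 19.4% and 26.6% with GSK-J4, against 22.6%, 23.0% and 21.2% with DMSO.

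Ahnak, which encodes a large scaffold protein, had 15.6%, 18.3% and 20.8% with GSK-J4, against 23.3%, 21.5% and 22.8% with DMSO, so that its GSK-J4 values were all below the DMSO values (difference -4.31 points, 95% interval -9.73 to 1.11). Lvrn, Pld1, Cblc, Corin, Anxa11 and Il1rl2 complete the 10 promoters with the highest mean coverage. Their differences ran from -4.46 points at Corin, a protease that activates natriuretic peptide, to 0.98 points at Lvrn, and their groups overlapped. The adjusted p was 0.975 or higher at all 10 promoters.

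The promoters with the smallest p among those whose groups did not overlap are given for their values, since none was called (adjusted p = 0.975 for all 12, limma). Rhbdl3, a rhomboid-like protein, had 19.5%, 11.7% and 22.6% with GSK-J4, against 0%, 7.57% and 5.57% with DMSO, a difference of 13.5 points (95% interval 5.66 to 21.4). Aebp1, a collagen-binding protein of the extracellular matrix, had 21.7%, 20.6% and 28.6% with GSK-J4, against 10.8%, 5.17% and 15.3% with DMSO. Hsd17b1, a steroid dehydrogenase that makes estradiol, had 16.1%, 5.78% and 11.5% with GSK-J4 and no coverage in the 3 DMSO lists of equal length. In the full lists its DMSO values were 3.72%, 0% and 8%, which overlapped those with GSK-J4, and its window is shared with that of Coasy.

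Dysf, the membrane repair protein dysferlin, had 17.3%, 14.1% and 20.4% with GSK-J4, against 9.07%, 6% and 9.03% with DMSO, and these values were the same in the full lists. It was the steadiest of the higher promoters, at 9.24 points with a 95% interval from 3.44 to 15.04. Phldb1 was higher by 8.46 points and Slc7a10, an amino acid transporter, by 8.74 points. Both groups of both genes overlapped in the full lists, where DMSO replicate 3 reached 12.98% at Phldb1 and 11.4% at Slc7a10.

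Among the lower promoters, Gja1, the gap junction protein connexin 43, had 2.03%, 4.98% and 0% with GSK-J4, against 10.9%, 11.7% and 12.2% with DMSO, a difference of -9.27 points (95% interval -14.6 to -3.92). In the full list of GSK-J4 replicate 3 the same window was covered over 19.2%, more than in any DMSO library. Rxfp3, a receptor for relaxin-3, had 2.65%, 7.28% and 0% with GSK-J4, against 13.7%, 14.98% and 30.7% with DMSO, and 32.6% in the full list of GSK-J4 replicate 3. The value of 0% in replicate 3 at both genes therefore came with the cut to equal length.

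Mast3, a kinase, and Anxa3, an annexin, followed the same course. Mast3 was lower by 7.53 points (difference -7.53) and had 12.2% in the full list of GSK-J4 replicate 3, against 10.1%, 8.43% and 7.97% in the DMSO replicates. Anxa3 was lower by 8.26 points (difference -8.26) and had 11.8% in that list, between the DMSO values. The window of Mast3 is shared with that of Il12rb1.

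Htr1f and Tcfl5 were lower with GSK-J4 in both kinds of list. Htr1f, a serotonin receptor, had 7.17%, 3.38% and 11.98% with GSK-J4, against 17.7%, 16.5% and 14.9% with DMSO, and the cut left these values unchanged. Its difference was -8.84 points (95% interval -15.2 to -2.52). Tcfl5, a transcription factor, had 5.37%, 5.30% and 3.70% with GSK-J4, against 11.95%, 12.5% and 11.7% with DMSO, and 8.70% in the full list of GSK-J4 replicate 3.

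**Figure D3:**
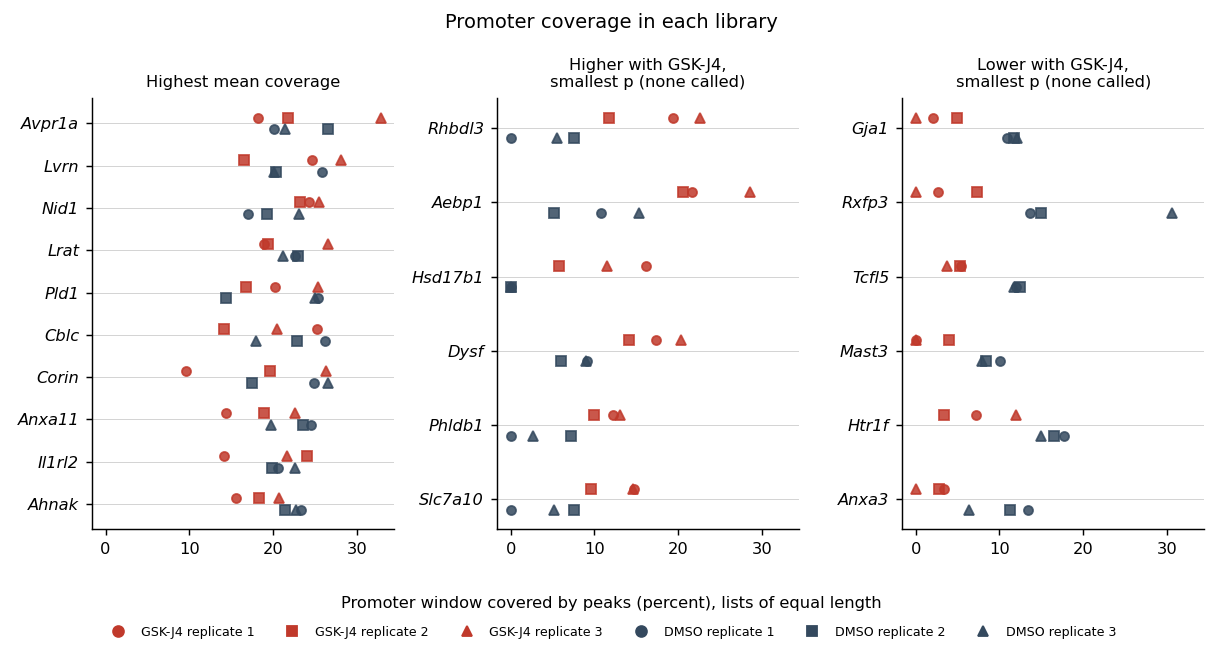
Promoter coverage (horizontal axis, percent of the window in lists of equal length) in each library at the 10 promoters with the highest mean (left) and at the 6 higher and 6 lower promoters with the smallest p whose groups do not overlap (middle and right). At the left the GSK-J4 symbols lie among the DMSO symbols, except at Nid1 and Ahnak, and none of the 22 promoters was called.

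Peaks found in every library of one treatment and in none of the other were rare. In the full lists, 17 promoters had a peak in all 3 GSK-J4 libraries and no DMSO library, and 15 had one in all 3 DMSO libraries and no GSK-J4 library, beside 880 with a peak in all 6. In the lists of equal length these numbers were 16, 9 and 468. Only Pam and Adad2 were in both sets for GSK-J4, and only Tcf7l2, Usf1 and the gene model Gm13306 in both for DMSO. These 5 were singled out after their values were seen. The coverage at Usf1 (2.57%, 2.00% and 2.45% with DMSO) came from the DMSO peaks in the adjoining gene Arhgap30 given below. These genes therefore do not give separate observations. In the full list of GSK-J4 replicate 3 a peak in Arhgap30 ended outside the Usf1 window.

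Tcf7l2, a transcription factor of the Wnt pathway, had no coverage with GSK-J4, against 6.47%, 1.03% and 5.32% with DMSO, and the mean of the 3 DMSO libraries was 4.27 ± 2.86% (SD, n = 3). Pam, which amidates neuropeptides, had a mean of 2.08 ± 0.624% with GSK-J4 in lists of equal length and no coverage with DMSO. Sox2, a progenitor transcription factor, had no coverage with GSK-J4 in lists of equal length, against 3.65%, 2.27% and 3.93% with DMSO, but 11.5% in the full list of GSK-J4 replicate 3. Coverage of these sizes was within the width of the intervals.

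Genes that stand for early and late steps of CGN maturation had a peak in at least 1 library at 62.5% of the early and 33.3% of the late promoters, beside 16.5% of all promoters. Of the 8 early genes, Mycn, Nfib and Tubb5 had no promoter peak in any of the 6 libraries. Atoh1, the transcription factor that specifies granule neuron progenitors, had 0%, 0% and 8.25% in the full GSK-J4 lists, against 11.9%, 2.78% and 0% in the DMSO lists. Gli2, an effector of Sonic hedgehog signalling, had 0%, 0% and 6.20% with GSK-J4, against 5.28%, 7.35% and 7.05% with DMSO.

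Jag1, a Notch ligand, had 0%, 0% and 10.3% with GSK-J4, against 5.25%, 3.10% and 1.55% with DMSO in the full lists. Myc had 0%, 0% and 2.60% with GSK-J4, against 5.00%, 0% and 3.70% with DMSO. GSK-J4 replicates 1 and 2 had no peak at any of the 8 early promoters, while replicate 3 had one at 4 and the DMSO replicates at 4, 3 and 4. Over all protein-coding promoters the share with a peak was 7.594%, 8.264% and 12.02% with GSK-J4, against 9.531%, 8.456% and 8.975% with DMSO. As shares of the 8 early promoters, the counts were 0%, 0% and 50.0% with GSK-J4, against 50.0%, 37.5% and 50.0% with DMSO. The list is short, and the early counts were not tested, either between the groups or against the shares of all promoters. Atoh1 and Jag1 were covered often enough to be tested, and neither was called (differences of -2.16 and -0.64 points in lists of equal length).

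Among the late genes, Gabra6, Grm4, Wnt7a, Olfm3 and Slc17a7 had no peak in any of the 6 libraries. Grin2c, an NMDA receptor subunit of mature granule neurons, had 1.18%, 2.45% and 10.7% in the full GSK-J4 lists, against 4.12%, 0% and 0% in the DMSO lists. Its values in lists of equal length differed by -0.16 points (95% interval -5.54 to 5.22), the opposite direction to the full lists. Gabrd, a GABA receptor subunit, had 0%, 0% and 12.6% with GSK-J4, against 0%, 1.47% and 0% with DMSO. Both late genes were highest in GSK-J4 replicate 3, and Slc17a6 had a peak in that library alone.

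None of the genes for the enzymes themselves had a promoter peak. The promoters of Ezh1, Ezh2, Eed, Suz12, Rbbp4 and Rbbp7 (the methyltransferase complex) and of Kdm6a, Kdm6b and Uty (the demethylases and their Y-linked relative) were listed at 0 in all 6 libraries. The data hold no measure of the enzymes' expression or activity, so the inhibition reached at this dose cannot be read from them.

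Promoters that gain H3K27me3 when Kdm6b is deleted in granule neuron precursors (Atoh1-Cre; Kdm6b fl/fl mice) were followed because KDM6B is a target of GSK-J4. The study listed them from the cerebellum at postnatal day 14, in samples other than these. Of 139 such genes with an annotated promoter, 57 had a peak in at least 1 of the 6 libraries and 8 in all 6. GSK-J4 replicates 1 to 3 marked 25, 23 and 41 of them, against 29, 23 and 21 in the DMSO replicates. As shares these were 17.99%, 16.55% and 29.5%, against 20.86%, 16.55% and 15.11%. GSK-J4 replicate 3 also marked the highest share of all protein-coding promoters, at 12.02%, against 7.594% and 8.264% in replicates 1 and 2. The 21 tested genes of this list had a median difference of -0.07 points, beside -0.13 over all tested promoters, with 10 higher and 11 lower and none called. In the full lists the median was 1.37 points, with 16 higher and 5 lower, and 0.44 points without GSK-J4 replicate 3, beside 0.50 and -1.51 points over all tested promoters.

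The members of this list with the highest coverage are given by library. Iqsec1, a regulator of receptor trafficking at synapses, had 18.5%, 19.7% and 17.6% with GSK-J4, against 18.6%, 16.97% and 12.05% with DMSO. Itpkb, a kinase of inositol phosphate signalling, had 4.38%, 9.80% and 24.9% with GSK-J4, against 21.1%, 19.8% and 8.35% with DMSO, and its groups overlapped. Its difference was -3.40 points, and -0.83 points in the full lists. Of the 21 tested members, Fbn1, Zfp462 and Junb had groups that did not overlap, all of them higher with GSK-J4, beside 4.13% higher and 4.86% lower over all tested promoters. In the full lists the groups overlapped at each of these 3. Fbn1, the matrix protein fibrillin, had 11.5%, 6.02% and 16.8% with GSK-J4, against 4.13%, 5.77% and 5.87% with DMSO, and its 95% interval ran from -0.74 to 13.1 points. Its difference of 6.17 points was 2.78 points in the full lists and 0.12 points there without GSK-J4 replicate 3.

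Zfp462 had 5.90%, 4.05% and 9.73% with GSK-J4, against 0.933%, 3.50% and 0% with DMSO, and Junb, an immediate early transcription factor, stayed under 2.50% in every library. The window of Fbn1 is shared with that of Gm9913. Of the 18 annotated genes that lose the mark in those mice, 5 had a peak in any library and 2 could be tested, at differences of 1.28 points (Sfi1) and 0.43 points (4931408C20Rik).

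**Figure D4:**
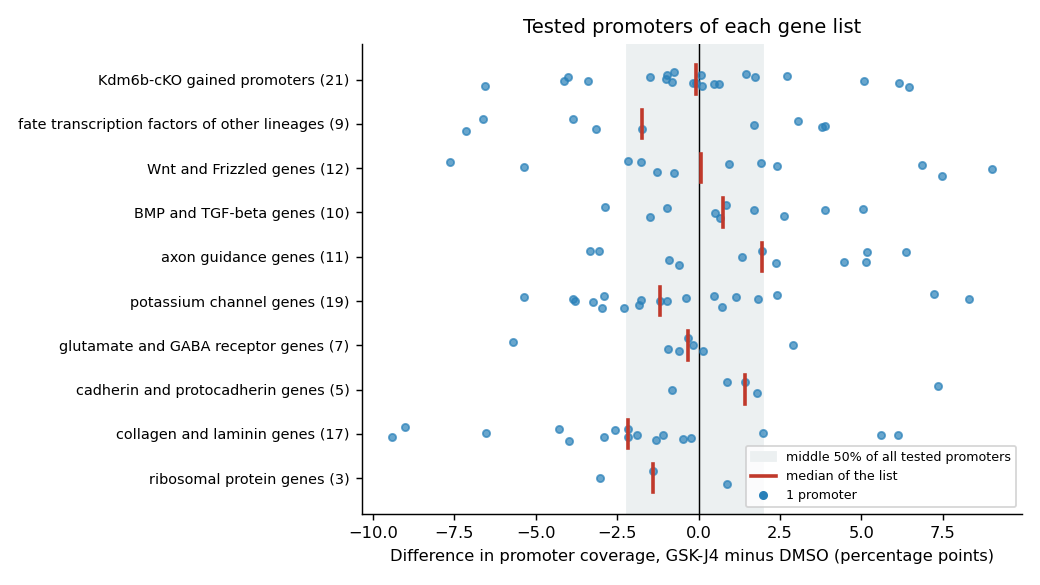
Difference in promoter coverage, GSK-J4 minus DMSO (horizontal axis, percentage points, lists of equal length), at each tested promoter of the gene lists with at least 3 tested members (number in brackets). Red ticks are list medians and the grey band holds the middle 50% of all tested promoters, from -2.19 to 1.97 points. The medians lie between -2.17 points (collagen and laminin genes) and 1.94 points (axon guidance genes), and the band describes single promoters, not medians.

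Developmental gene families were marked to different extents, and none of their promoters was called in either direction. Among Hox genes, the classical targets of Polycomb, 4 of 39 had a peak in any library and none was covered often enough to be tested. Of 121 fate transcription factors of other lineages, 37 had a peak in any library. GSK-J4 replicates 1 to 3 marked 14, 13 and 27 of them, against 13, 14 and 13 in the DMSO replicates. As shares these were 11.57%, 10.74% and 22.31%, against 10.74%, 11.57% and 10.74%. The share of all protein-coding promoters was also highest in GSK-J4 replicate 3, at 12.02%, against 7.594% and 8.264% in replicates 1 and 2. Tbx21, the T-bet factor of T cells, had 5.07%, 4.15% and 0% with GSK-J4, against 3.80%, 15.8% and 11.1% with DMSO. In the full list of GSK-J4 replicate 3 it had 17.9%, more than any DMSO library, and its difference of -7.14 points was -0.33 points in the full lists.

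The medians of the families below were -0.36, 0.67 and 1.89 points in the full lists for Wnt and Frizzled, BMP and TGF-beta, and axon guidance genes, and all of them were negative (-2.02, -0.87 and -1.92 points) once GSK-J4 replicate 3 was left out of these. Over all tested promoters the median likewise went from 0.50 to -1.51 points. Wnt and Frizzled genes, which act in signalling between cells, had 12 tested members of 37, with 6 higher and 6 lower and a median difference of 0.08 points. Sfrp2, a secreted Wnt antagonist, had 4.05%, 6.03% and 13.2% with GSK-J4, against 18.4%, 13.6% and 14.2% with DMSO. The groups did not overlap, but in the full list of GSK-J4 replicate 3 Sfrp2 reached 20.8%, above the DMSO values. Dkk2, another antagonist, had 15.2%, 13.3% and 22.4% with GSK-J4, against 15.5%, 24.7% and 12.95% with DMSO.

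BMP and TGF-beta genes had 10 tested members of 41, 7 higher and 3 lower, with a median of 0.75 points. Bmp3 had 15.2%, 16.5% and 23.6% with GSK-J4, against 16.9%, 20.6% and 15.4% with DMSO. Axon guidance genes had 11 tested members of 69, 7 higher and 4 lower, with a median of 1.94 points. Sema6d, a semaphorin, had 8.22%, 15.6% and 16.2% with GSK-J4, against 0%, 15.7% and 8.70% with DMSO, and the groups overlapped. The full list of DMSO replicate 1 covered 17% of it, and the difference of 5.18 points turned to -0.48 points.

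Ion channel and receptor genes, many of which neurons turn on as they mature, gave no call either. Potassium channel genes had 19 tested members of 92, 7 higher and 12 lower, with a median of -1.19 points (-0.22 in the full lists, with 9 higher and 10 lower). Glutamate and GABA receptor genes had 7 tested members of 47, 2 higher and 5 lower, but 4 higher and 3 lower in the full lists. Grm8, a metabotropic glutamate receptor, had 2.68%, 0% and 0% with GSK-J4, against 6.13%, 5.17% and 8.48% with DMSO, a difference of -5.70 points with an adjusted p of 0.975 (limma). In the full list of GSK-J4 replicate 3 it had 11.6%, above every DMSO value, and the difference was -1.83 points.

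Genes of adhesion and of the matrix completed the lists. Pcdh10, a protocadherin, had 14.4%, 12.8% and 23.3% with GSK-J4, against 9.88%, 9.92% and 8.60% with DMSO, and was 1 of 5 tested cadherin and protocadherin genes of 91. Collagen and laminin genes had 17 tested members of 55, of which 3 were higher and 14 lower, with a median of -2.17 points beside -0.13 over all tested promoters. In the full lists these genes were again 3 higher and 14 lower, with a median of -1.31 points beside 0.50, and without GSK-J4 replicate 3 the median was -2.72 beside -1.51. Col18a1 had 9.57%, 19.4% and 8% with GSK-J4, against 19.3%, 25.1% and 19.7% with DMSO, and the groups overlapped. Ribosomal protein genes, the active control, had 3 tested members of 80, at a median of -1.42 points.

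In gene bodies 3 of 871 tested genes (0.344%) were called, 1 higher and 2 lower with GSK-J4 (limma with Benjamini-Hochberg adjustment). Epn3, an adaptor of endocytosis, had 3.20%, 3.28% and 2.64% of its body covered with GSK-J4 and none in the DMSO libraries (difference 3.04 points, adjusted p = 0.0145). Arhgap30, a GTPase-activating protein, had none with GSK-J4, against 0.840%, 0.725% and 0.801% with DMSO (difference -0.79 points, adjusted p = 0.0105). Gm3952, a gene model that was named because it was called, had 1.80%, 1.87% and 2.00% with GSK-J4, against 2.56%, 2.53% and 2.56% with DMSO (difference -0.66 points, adjusted p = 0.0469).

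The calls in Epn3 and Arhgap30 rested on single short peaks that did not coincide. In Epn3 (chr11) the GSK-J4 peaks were 236, 242 and 195 bp long, at chr11:94491620-94491855, chr11:94491155-94491396 and chr11:94491294-94491488. The peak of replicate 1 overlapped neither of the others, and no base was covered in all 3 libraries. In Arhgap30 (chr1) the DMSO peaks were 154, 133 and 147 bp long, at chr1:171408335-171408488, chr1:171408300-171408432 and chr1:171408649-171408795, and that of replicate 3 overlapped neither of the others.

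The full list of GSK-J4 replicate 3 held a peak of 833 bp in Arhgap30, at chr1:171407368-171408200, that the cut to equal length had removed. With the full lists the difference at Arhgap30 was thus 0.73 points, the opposite direction, and it was not called (adjusted p = 0.999). All the peaks in Gm3952 lay over repeats, with at least 97.6% of their bases repeat-masked. With replicate numbers as a block, which compares libraries of the same number, 0 gene bodies were called (22 higher and 19 lower at an unadjusted p below 0.05). Leaving out any 1 library other than GSK-J4 replicate 3 also left 0 calls, and leaving out that library gave 3, all lower.

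Among the gene bodies not called, Nmbr, a receptor for neuromedin B, had 1.063%, 0.687% and 0.895% with GSK-J4 and none with DMSO in both kinds of list (adjusted p = 0.0978). Pik3cd had 0.377%, 0.347% and 0.278% with GSK-J4 and none with DMSO in lists of equal length, but 0.883% in the full list of DMSO replicate 1. Bmpr2, a BMP receptor, had none with GSK-J4, against 0.226%, 0.245% and 0.168% with DMSO in both kinds of list (adjusted p = 0.198). Flt4, the receptor for vascular endothelial growth factor C, had 0.299%, 0% and 0.156% with GSK-J4, against 1.01%, 1.55% and 1.28% with DMSO, but 1.10% in the full list of GSK-J4 replicate 3, where the groups overlapped.

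In 10 kb bins along the genome 0 of 3783 (0%) were called, with 5.31% below an unadjusted p of 0.05 (86 bins higher with GSK-J4, the others lower) and a smallest adjusted p of 0.608 (limma). The bin with the smallest p of all, chr13:120230001-120240000, had 0%, 1.46% and 0% with GSK-J4, against 6.54%, 7.05% and 6.75% with DMSO, and overlaps the gene model Gm21731. In the full list of GSK-J4 replicate 3 it was covered over 4.6%. The next lower bin, chr2:180640001-180650000, overlaps Tcfl5 and had 3.22%, 3.18% and 2.22% with GSK-J4, against 7.17%, 7.49% and 7.03% with DMSO, so that it repeats the promoter value given above. The third, chr1:134250001-134260000, overlaps no gene and lies nearest to Adora1, the adenosine A1 receptor. It had 7.09%, 6.78% and 6% with GSK-J4, against 11.5%, 10.5% and 10.5% with DMSO.

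The highest-ranked bins in the other direction were chr15:88380001-88390000, chr5:63640001-63650000 and chr14:4750001-4760000. The first had 3.67%, 3.95% and 3.20% with GSK-J4 and none with DMSO. The bin on chromosome 5 overlaps Nwd2 and had 8.18%, 6% and 6.72% with GSK-J4, against 1.61%, 2.33% and 2.99% with DMSO. The bin on chromosome 14 had 4.4%, 3.22% and 3.10% with GSK-J4 and none with DMSO.

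The second drug of the study acts on the opposite enzyme: GSK-126 inhibits EZH2, which writes the mark. It was used at 5 µM, beside 1 µM of GSK-J4, and added on the same day, and it has 3 DMSO libraries of its own. The GSK-126 lists covered 2.00, 1.07 and 1.63 Mb, against 3.29, 4.23 and 3.55 Mb in their DMSO lists. Of 939 tested promoters, 23 (2.45%) were called higher and 41 (4.37%) lower with GSK-126 in lists cut to a shared length. That cut removed most of each DMSO list, so higher and lower with GSK-126 are relative to the other peaks kept. At the 40 of the 41 lower promoters that could be tested with GSK-J4, the median difference was -14.3 points with GSK-126 and -0.70 points with GSK-J4, where 18 were higher and 22 lower. Among the 40, Lmo7 and Gm9922 had the same values in every library, as did Palmd and 4930455H04Rik, so these do not give separate observations. At the 19 testable promoters that were higher with GSK-126, the medians were 11.6 points with GSK-126 and -1.30 points with GSK-J4.

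Single promoters are given with their values in the lists of 1.40 Mb for GSK-J4. Slc1a5, a glutamine transporter, had a mean of 15.06 ± 2.54% with GSK-J4 and 15.03 ± 1.29% with its DMSO (SD, n = 3 each), while GSK-126 lowered it by 18.2 points (difference -18.2). Tmem196 had 17.97 ± 3.92% with GSK-J4 and 17.96 ± 1.78% with DMSO, beside a difference of -16.4 points with GSK-126. Prdm1, a repressor that directs plasma cell fate, had 9.67%, 9.65% and 0% with GSK-J4, against 14.1%, 13.9% and 12.8% with DMSO, but 23.2% in the full list of GSK-J4 replicate 3, and was higher by 12.3 points with GSK-126. Tcfl5 also ran in opposite directions in the cut lists, at -7.26 points with GSK-J4 and 8.50 points with GSK-126.

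**Figure D5:**
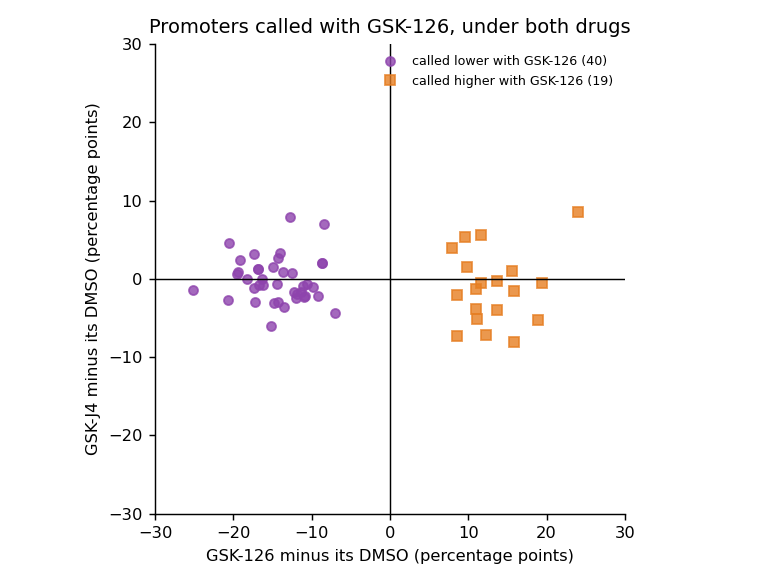
Difference in promoter coverage with GSK-126 (horizontal axis) and with GSK-J4 (vertical axis), each against its own DMSO in percentage points, at the promoters called with GSK-126 that were also tested with GSK-J4. The horizontal spread was fixed by the choice of promoters. The GSK-J4 differences of the 40 lower promoters lie between -6.08 and 7.93 points and those of the 19 higher ones between -8.09 and 8.60 points.

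Whether the drugs differed in their effects was tested over the 12 libraries, with all lists cut to 1.07 Mb. Of 1766 promoters, 13 (0.736%) had a higher and 10 (0.566%) a lower effect of GSK-J4 than of GSK-126 (interaction term in limma, Benjamini-Hochberg adjustment). Among these 23 the median absolute effect was 2.41 points with GSK-J4 and 13.7 points with GSK-126. Lmo7 and Gm9922, among the 13, had the same values in every library, as did Ccr9 and Slc6a20a among the 10. With the full lists the split was 108 higher and 0 lower, and 9 of the 23 promoters were among these 108. Only 1 promoter was called with replicate numbers as a block.

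The time course gave another set for description. Between DIV7 and DIV1, 8 of 1794 promoters (0.446%) were called higher and 10 (0.557%) lower. Of the 10, 4 could be tested with GSK-J4 and had a median difference of 0.28 points, and Hsd17b1, described above, was among them. Gm9767 and Tmem200a, both among the 4, had the same value in every library and do not give separate observations. Hsd17b1 and Coasy, whose windows are shared, were both among the 10. Of the 8 promoters that rose with maturation, 6 could be tested and had a median of 1.84 points, with 4 higher and 2 lower and none called.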

How the data were processed

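The 6 libraries were CUT&RUN profiles of H3K27me3 from cultured CGNs, grouped by their GEO labels. The authors trimmed reads with Trimmomatic 0.38, aligned them to mm10 with STAR 2.7.2b and called broad peaks on each library with MACS2 2.1 at an FDR of 0.1. The deposited peak lists give each peak's fold enrichment as a linear ratio and its p-value and q-value as −log10. Read counts were not used here, so depth and counting error are unknown, and the DESeq2 test of the methods was replaced by limma on coverage.

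The percentage of each promoter window (3 kb on each side of the 5′ end, GENCODE vM21), gene body (the gene outside its own window, at least 2 kb) and 10 kb bin covered by peaks was computed from lists cut to 1.40 Mb by p-value. A cut to equal length removes any global change. Windows covered in at least 3 libraries were tested with limma 3.58.1 (lmFit, robust eBayes, R 4.3.3, two-sided) and Benjamini-Hochberg adjustment at 0.05. The code was tested on simulated data. Whole-library measures used exact permutation tests (scipy 1.17.1), adjusted over 13 measures. Sequences come from GRCm38.p6. P-values measure the spread between cultures.

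Named genes were the study's early and late CGN genes and the H3K27 enzymes, the 10 promoters with the highest mean coverage, the 6 higher and 6 lower promoters with the smallest p whose groups do not overlap, the 3 most covered members of each list, and the 3 higher and 3 lower gene bodies and bins with the smallest p, without predicted gene models. Other genes were named after their values were seen. The groups, lists and tests were chosen with earlier results of these data known. Alternatives were the full lists, a minimum −log10 q of 2, ranking by fold enrichment, coverage in at least 1 library, windows of 1 kb on each side, 5 kb bins, log2 of the percentage plus 1, a replicate block and leaving out each library. The full lists without GSK-J4 replicate 3, fold enrichment and the lists from GSK-126 and the time course were added after seeing the data.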

Additional observations from a re-analysis of the deposited data

Results flagged for a closer look

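The promoters whose response to GSK-J4 differed from their response to GSK-126 by the interaction test are listed here, each value being the GSK-J4 effect minus the GSK-126 effect in percentage points of coverage, in lists cut to 1.07 Mb. Predicted gene models are left out. A higher effect of GSK-J4 was found at Rgmb (22.03), Car2 (21.6), Flnc (21.1), Tmem196 (19.8), Smim3 (18.5), Slc1a5 (18.3), Lmo7 (18.2), Rasd1 (16.4), Thsd1 (15.99) and Edaradd (13.2), and a lower one at Pkp1 (-24.1), Prdm1 (-20.5), Cdc14b (-20.2), Npy (-19.5), Tcfl5 (-17.0), Ccdc194 (-11.8), Bnc1 (-10.7), Ccr9 and Slc6a20a (-9.70 each, from windows that overlap) and Gas6 (-8.88). At 21 of the 23 called promoters, gene models included, the difference with GSK-126 was the larger in size. Car2 differed by 2.41 points with GSK-J4 and by -19.2 points with GSK-126, and Cdc14b by 0 and 20.2 points. At Smim3 (11.7 points with GSK-J4 and -6.80 with GSK-126), Edaradd (7.95 and -5.30), Thsd1 (6.69 and -9.29), Prdm1 (-8.26 and 12.3) and Tcfl5 (-8.49 and 8.50) the 2 differences were of opposite sign and closest in size, gene models aside. The doses differed, and the experiments had separate DMSO libraries.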

How the results depend on the processing

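No promoter and no 10 kb bin was called under any alternative run (the full lists, a minimum −log10 q of 2, ranking by fold enrichment, coverage in at least 1 library, other window sizes, log2 values, the replicate block, leaving out each library, and the full lists without GSK-J4 replicate 3). The 3 calls in gene bodies became 0 with −log10 q of at least 2 and 0 with the replicate block, between 0 and 3 when 1 library was left out (0 for each but GSK-J4 replicate 3), and 5, all lower, in the full lists without GSK-J4 replicate 3. Arhgap30 reversed to 0.73 points in the full lists and to 0.73 points when peaks were ranked by fold enrichment, where the 833 bp peak of GSK-J4 replicate 3 stayed in the list. The difference in covered length lay between -0.381 and 0.471 Mb when 1 library was left out, and was -0.381 Mb without GSK-J4 replicate 3.

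The 23 calls of the interaction became 108 in the full lists, 1 with −log10 q of at least 2, 4 when ranked by fold enrichment, 12 with coverage in at least 1 library and 1 with the replicate block, and lay between 2 (without DMSO replicate 2 of the GSK-J4 experiment) and 16 when 1 library was left out, falling by over 1.5 times for each library except DMSO replicate 3 of the GSK-126 experiment. The cause was not tested. Libraries of the same replicate number deviated together only weakly (correlations from 0.027 to 0.034), but more than those of other numbers (-0.037 to 0.0027). Whether the numbers pair the cultures cannot be told from these values. The block lowered the count of calls in gene bodies and in the interaction. Of 1040 values of the named windows under the alternatives, 954 moved by less than the spread between replicates or kept their call, 77 moved further, 7 lost their call and 2, both of Arhgap30, reversed. Depth is unknown, and at promoters covered in all 6 libraries the 95% interval reached a median of 7.09 points to either side of the estimate.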
